A study of Mus musculus with 8 samples.

Results

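The genes described here encode 8 surface proteins used to recognise, sort or follow mouse spermatogonial stem cells or epithelial cells: Thy1, Cd24a, Cd9, Muc1, Epcam, Cdh1, Mcam and Adgra3. They are 8 of the 19938 genes that the array measured with a probe set carrying 1 gene symbol alone. Probe sets were to be chosen by their mean signal, the brightest over all 8 arrays standing for its gene. Each of the 8 genes has 1 such probe set, so this step chose nothing between probe sets. All RNA came from cultures labelled as mouse spermatogonial stem cells, the germ cells that renew themselves and found sperm production. It also held transcripts of fibroblast genes in every array, as given below. In 2 arrays the cells belonged to a serial-transplant line with a labelled donor age of 1500 days, and culture had lasted 14 to 18 months. In 3 arrays the donors were 8 days old and culture had also lasted 14 to 18 months. In the 3 arrays they were set against, the donors were again 8 days old and culture had lasted 7 to 10 weeks. These groups are called serial-transplant long cultures, young-donor long cultures and short cultures. The study set out to find genes that differ with ageing of the cells in the animal and in the dish. In that line the labelled age and serial transplantation go together, and they cannot be told apart. Strain, sorting, feeder cells and medium are not given in the labels, nor is whether the 1500 days belong to an animal or to the line.

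Spermatogonial stem cells sit on the basement membrane of the seminiferous tubule and have no surface protein of their own that sets them apart from every other testis cell, so they are enriched with combinations of markers. THY1, a small GPI-anchored glycoprotein of the immunoglobulin family, is widely used to enrich them from mouse testes, and it is also carried by T lymphocytes and many fibroblasts. CD9, a membrane-spanning protein of the tetraspanin family, and EPCAM and CDH1 (E-cadherin), which join cells to like cells, mark undifferentiated spermatogonia as well as many epithelia. CD24 is a short, heavily glycosylated GPI-anchored protein, MCAM (CD146) an immunoglobulin-family adhesion molecule, ADGRA3 (GPR125) an adhesion G protein-coupled receptor expressed in spermatogonial progenitors, and MUC1 a large transmembrane mucin of epithelial surfaces.

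Promoter sequence is shown for Muc1 and Cd9, the genes that were higher in young-donor long cultures than in short cultures and for which the RefSeq promoter table of GRCm38.p6 holds an entry. That table holds 5 of the 8 genes. The others, Thy1, Cd24a and Cdh1, are named only. Each line gives the 250 bases upstream of the gene's start, 5′ to 3′ on the gene's strand, and capitals mark matches to the searched motifs on either strand. The Muc1 window is chr3:89228806-89229055 on the plus strand and the Cd9 window is chr6:125494761-125495010 on the minus strand.
Muc1: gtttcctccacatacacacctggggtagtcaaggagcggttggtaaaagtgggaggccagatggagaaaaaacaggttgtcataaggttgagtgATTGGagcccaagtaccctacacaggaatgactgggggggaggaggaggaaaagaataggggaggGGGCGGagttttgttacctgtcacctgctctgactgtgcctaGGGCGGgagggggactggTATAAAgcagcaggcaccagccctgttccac
Cd9: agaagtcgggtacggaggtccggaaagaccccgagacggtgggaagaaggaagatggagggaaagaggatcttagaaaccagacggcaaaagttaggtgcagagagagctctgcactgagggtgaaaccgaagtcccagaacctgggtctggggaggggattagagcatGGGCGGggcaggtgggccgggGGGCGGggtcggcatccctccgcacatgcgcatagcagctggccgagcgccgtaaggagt
The searched motifs were the GC box GGGCGG, the TATA box TATAAA, the CCAAT box, the E-box CACGTG and the AP-1 site TGANTCA, all on both strands. In Muc1 the capitals are 2 GC boxes, which start 91 and 49 bases upstream, a TATAAA 31 bases upstream and, 156 bases upstream, a CCAAT on the opposite strand, read here as ATTGG. In Cd9 they are 2 GC boxes, 81 and 60 bases upstream. Over the 32851 promoter windows of that table, 32.7% held a GC box, 12.4% a TATAAA and 33.8% a CCAAT. A match describes the letters in the window and not a bound factor.

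Values are the deposited log2 signals, in which a step of 1 is a doubling. The method that made them gives no detection call, so the median of all values, 6.94, is used as a mark below which a signal is called dim. Array medians ran from 6.90 to 6.98. The cells' identity was checked with lists of marker genes. Of 13 core germ cell genes, 11 were above the mark in every array, and the mean level of the list was 9.72 to 9.87 in serial-transplant long cultures, 9.53 to 9.67 in young-donor long cultures and 9.27 to 9.50 in short cultures. Of 13 fibroblast genes, 12 were above the mark in every array, and their mean level was 9.11 to 9.73, 9.75 to 9.76 and 10.33 to 10.96 in the same groups. The RNA therefore included transcripts of both lists in every culture. Replicate 2 of the short cultures stood apart within its group, with the highest fibroblast list (10.96), the highest list of macrophage and mast cell genes (7.20, against 6.51 and 6.69 in replicates 1 and 3) and the lowest list of undifferentiated spermatogonia genes (8.66, against 9.03 and 9.01). In bulk RNA such as this, fewer cells of a type and less RNA per cell cannot be told apart. The labels do not say whether replicates are separate cultures or donors, so a p-value here weighs a difference against array-to-array spread that may be technical.

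**Figure D1:**
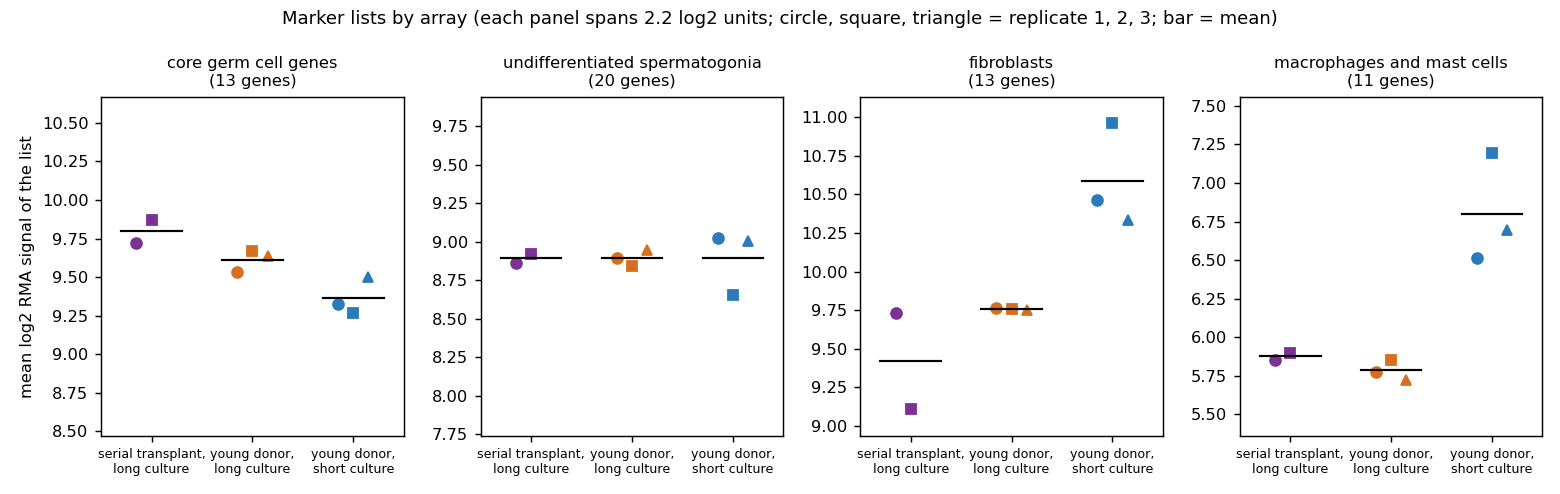
Mean log2 signal of 4 lists of marker genes (y axis) in each array (points), by culture group (x axis). Fibroblast genes sit between 9.11 and 9.76 in the long cultures and between 10.33 and 10.96 in the short cultures, while core germ cell genes run from 9.53 to 9.87 in the long cultures and from 9.27 to 9.50 in the short cultures.

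Long culture of cells from 8-day-old donors went with higher Cd24a, Muc1 and Cd9 and with lower Thy1. Of the 8 genes, 3 rose and 1 fell in young-donor long cultures relative to short cultures, with limma's moderated test at an adjusted p under 0.05 over all probe sets. Across all genes 12.8% passed that test, 6.10% in the upward and 6.69% in the downward direction. The median log2 change of the 8 genes was 0.37, against -0.04 over all genes. The values of 6 genes did not overlap between the groups, 5 of them higher and 1 lower in long culture, where 34.0% of all genes had no overlap. Serial-transplant long cultures were set against the same short-culture arrays, so these comparisons are not independent of each other. There 2 genes rose, Cd24a and Muc1, and none fell, against 10.1% of all genes called, 4.10% upward and 5.96% downward. The median log2 change was 0.31, against -0.01 over all genes, and 5 genes were higher without overlap, where 40.3% of all genes had no overlap.

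**Figure D2:**
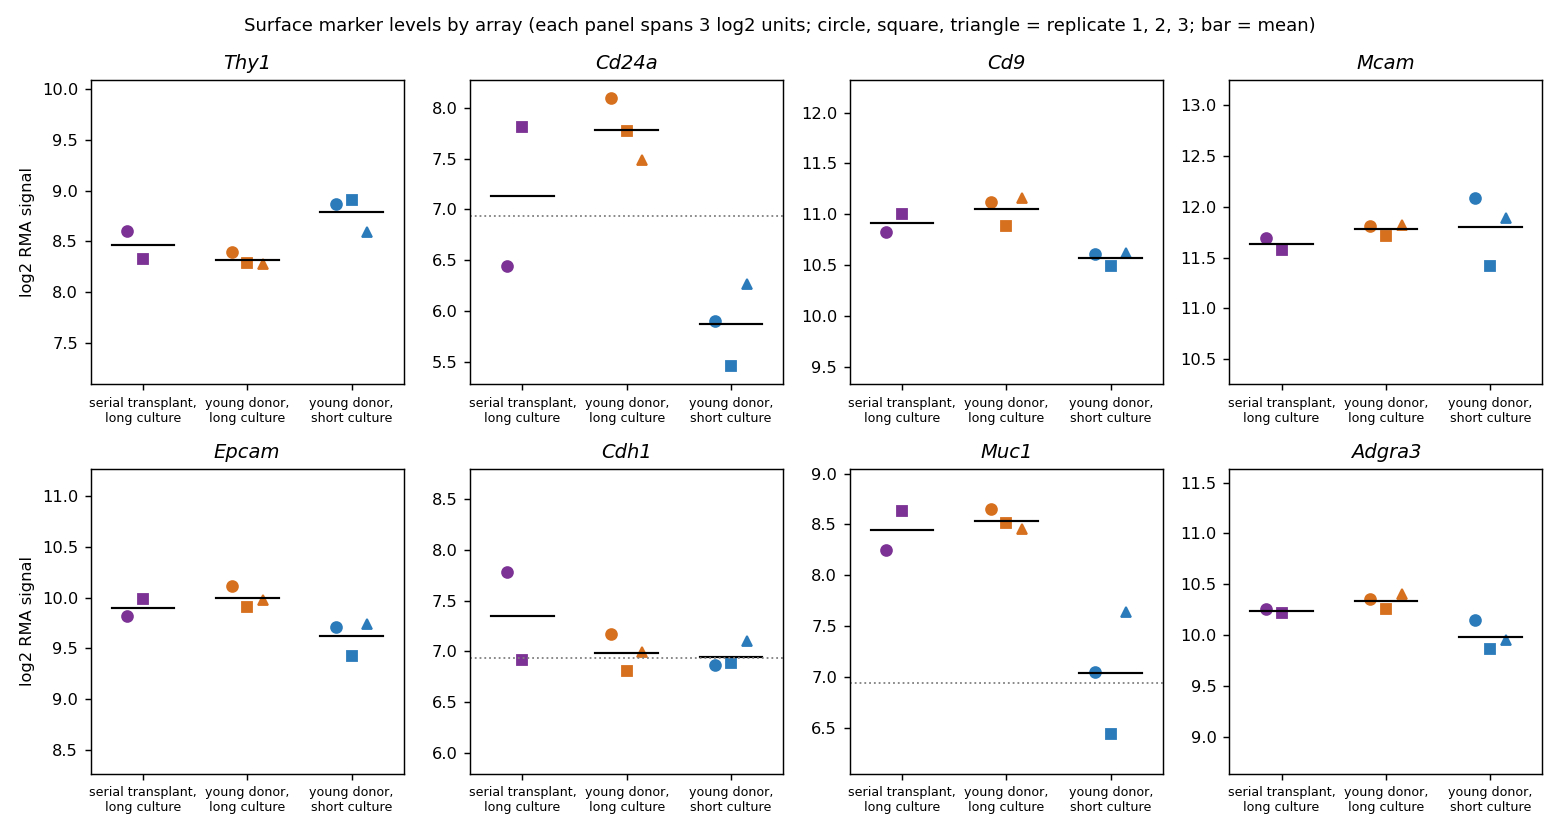
Log2 signal (y axis, 3 log2 units in every panel) of the 8 genes in each array (points) with group means (bars), by culture group (x axis), and the median of all values as a dotted line where it falls in range. Cd24a and Muc1 span 2.64 and 2.21 log2 units over the 8 arrays, and the other genes span less than 1.

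**Figure D3:**
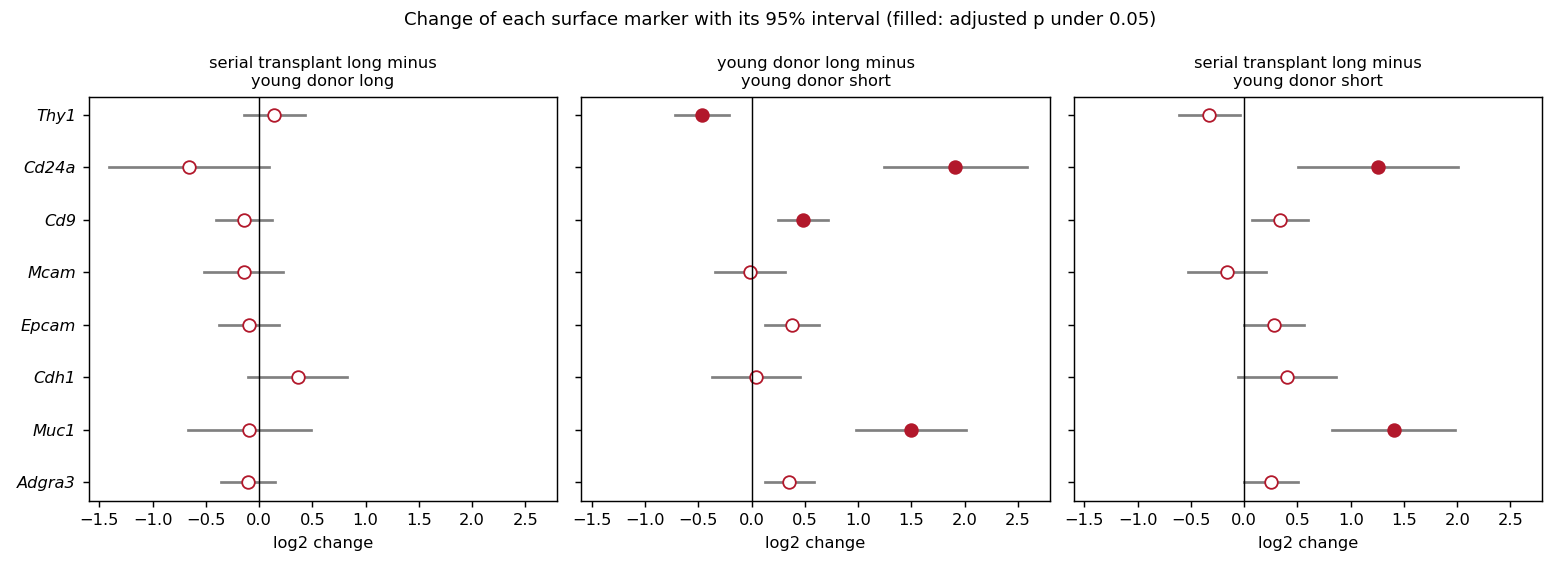
Log2 change of each of the 8 genes (points) with its 95% confidence interval (lines) in the 3 comparisons. For Cd24a and Muc1 the intervals of both comparisons with short culture lie above 0, and every interval of serial-transplant against young-donor long cultures includes 0.

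Cd24a, a GPI-anchored glycoprotein found on many progenitor and epithelial cells, varied most of the 8 genes. The log2 signal of Cd24a was 6.44 and 7.81 in serial-transplant long cultures, 8.10, 7.77 and 7.48 in young-donor long cultures, and 5.90, 5.45 and 6.26 in short cultures. Every long-culture array was above every short-culture array, and all 3 short cultures were dim, as was serial-transplant replicate 1. In young-donor long cultures Cd24a averaged 7.78 ± 0.31, against 5.87 ± 0.41 in short cultures (SD, n = 3 each). The log2 change was 1.91 ± 0.31 (SE; 95% confidence interval 1.24 to 2.58; 3.76-fold; limma adjusted p = 0.00457). A larger change was seen in 0.107% of all probe sets. The call stood in all 16 alternative settings, with adjusted p from 0.00210 to 0.0250 in limma.

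The serial-transplant arrays differed widely from each other for Cd24a, by more than 1 log2 unit, with a mean of 7.13 ± 0.97 (SD, n = 2). Against short cultures the log2 change was 1.25 ± 0.34 (SE; 95% confidence interval 0.50 to 2.0; 2.38-fold; limma adjusted p = 0.0442). This call was lost in 10 of the 16 alternative settings, with a log2 change of 0.57 and an adjusted p of 0.472 without serial-transplant replicate 2 in limma, and 1.94 and 0.00962 without replicate 1. The order of the group means was young-donor long, serial-transplant long, short culture, and the long-culture groups overlapped.

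Muc1, which codes for a transmembrane mucin with a long glycosylated outer part, was the other gene with a large shift. Its log2 signal was 8.25 and 8.63 in serial-transplant long cultures, 8.65, 8.51 and 8.45 in young-donor long cultures, and 7.05, 6.44 and 7.64 in short cultures. All long-culture arrays lay above all short-culture arrays, and short-culture replicate 2 was the only dim array. The spread was 0.10 (SD, n = 3) around 8.54 in young-donor long cultures, against 0.60 (SD, n = 3) around 7.04 in short cultures. The log2 change between them was 1.50 ± 0.24 (SE; 95% confidence interval 0.98 to 2.01; 2.82-fold; limma adjusted p = 0.00418), and 0.263% of all probe sets changed more. It passed in all 16 alternative settings, with adjusted p from 0.000367 to 0.0234 in limma.

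In serial-transplant long cultures Muc1 averaged 8.44 ± 0.27 (SD, n = 2), a log2 change of 1.40 ± 0.26 (SE; 95% confidence interval 0.83 to 1.98; 2.64-fold; limma adjusted p = 0.00910) against short cultures. It passed in 15 of 16 settings, and without serial-transplant replicate 2 the log2 change was 1.21 with an adjusted p of 0.155 in limma. The long-culture means lay within 0.1 log2 units of each other and the groups overlapped. The printed Muc1 window holds GC boxes and a TATAAA. None of the other 4 promoter windows available for these genes held TATAAA.

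Cd9, a tetraspanin that organises integrins and other membrane proteins into patches, rose by less than Cd24a and Muc1. Cd9 had log2 signals of 10.82 and 11 in serial-transplant long cultures, 11.12, 10.88 and 11.16 in young-donor long cultures, and 10.61, 10.49 and 10.62 in short cultures. The short cultures formed the lowest group with no overlap, and the long-culture groups overlapped. In young-donor long cultures the log2 change was 0.48 ± 0.11 (SE; 95% confidence interval 0.24 to 0.71; limma adjusted p = 0.0177). The call was lost without young-donor long replicate 1 (limma adjusted p = 0.0689) or replicate 3 (0.0871), with log2 changes of 0.45 and 0.43. In serial-transplant long cultures the log2 change was 0.34 ± 0.12 (SE), which did not pass (limma adjusted p = 0.116).

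Thy1, the GPI-anchored protein most often used to enrich these stem cells, was the only gene of the 8 that fell. Its log2 signal was 8.60 and 8.33 in serial-transplant long cultures, 8.40, 8.29 and 8.28 in young-donor long cultures, and 8.87, 8.91 and 8.60 in short cultures. Every young-donor long culture was below every short culture, while serial-transplant replicate 1 matched the lowest short culture. The log2 change in young-donor long cultures was -0.47 ± 0.12 (SE; 95% confidence interval -0.72 to -0.21; limma adjusted p = 0.0262). The call was lost on leaving out any of the 3 young-donor long arrays or short-culture replicate 1 or 2, with adjusted p from 0.0601 to 0.103 in limma and log2 changes from -0.51 to -0.41. Serial-transplant long cultures had a log2 change of -0.33 ± 0.13 (SE), which did not pass (limma adjusted p = 0.162).

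Many fibroblasts carry Thy1, and fibroblast genes were also lower in long than in short cultures. Across all genes 6.69% fell in young-donor long and 5.96% in serial-transplant long cultures, both against short cultures. Of 13 fibroblast genes 11 fell and none rose in young-donor long cultures. Among them were Col1a2, a type I collagen chain, and Pdgfra, a growth factor receptor, with log2 changes of -1.04 and -1.50. The mean level of the 13 genes was 9.75 to 9.76 in young-donor long cultures, against 10.33 to 10.96 in short cultures. The count of fallers was 5, 6 and 4 without young-donor long replicate 1, 2 or 3, and 8 and 9 without short-culture replicate 1 or 2. Of the 7 measured T lymphocyte genes, all were dim on average in every group, and 1, Cd3e, fell (log2 change -0.50), a call lost without young-donor long replicate 1 or 3 or short-culture replicate 2. Likewise 11 fibroblast genes fell in serial-transplant long cultures (none without serial-transplant replicate 2), with a median log2 change of -1.12, against -0.74 in young-donor long cultures, where Thy1 had -0.33 and -0.47. Between serial-transplant and young-donor long cultures the fibroblast median was -0.34, while Thy1 had 0.14, and neither Thy1 nor any fibroblast gene passed. The part of fibroblasts in the Thy1 result was not tested.

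Epcam, an adhesion protein that binds its like on neighbouring cells, was also lowest in short culture. The arrays gave log2 signals of 9.82 and 9.98 in serial-transplant long cultures, 10.11, 9.91 and 9.98 in young-donor long cultures, and 9.71, 9.42 and 9.74 in short cultures. No long-culture array overlapped the short cultures, yet the log2 change of 0.38 ± 0.11 (SE; 95% confidence interval 0.13 to 0.63) in young-donor long cultures did not pass (limma adjusted p = 0.0565). It passed in 3 of 16 alternative settings, with a lowest adjusted p of 0.0411 in limma when dim probe sets were left out. In serial-transplant long cultures the log2 change was 0.28 ± 0.13 (SE; limma adjusted p = 0.229).

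Adgra3, an adhesion G protein-coupled receptor, had a similar pattern of smaller size. Its log2 signal was 10.26 and 10.21 in serial-transplant long cultures, 10.35, 10.26 and 10.41 in young-donor long cultures, and 10.15, 9.86 and 9.95 in short cultures. Short cultures were again lowest without overlap. The log2 change in young-donor long cultures was 0.35 ± 0.10 (SE; 95% confidence interval 0.13 to 0.58), just short of the threshold (limma adjusted p = 0.0504), and it passed in 5 of 16 alternative settings. The serial-transplant long cultures had a log2 change of 0.25 ± 0.12 (SE; limma adjusted p = 0.238).

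Mcam and Cdh1 showed no shift with culture length that passed the test. Mcam, which binds cells to each other and to matrix, had log2 signals of 11.70 and 11.58 in serial-transplant long cultures, 11.81, 11.71 and 11.83 in young-donor long cultures, and 12.09, 11.42 and 11.89 in short cultures. The short cultures held the highest and the lowest array, so all groups overlapped except that both serial-transplant arrays were below the young-donor long cultures. The log2 change in young-donor long cultures was -0.01, with a 95% confidence interval of -0.34 to 0.31 (limma adjusted p = 0.964). In serial-transplant long cultures it was -0.16, with an interval of -0.53 to 0.21 (limma adjusted p = 0.669).

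Cdh1, the E-cadherin gene, was near the dim mark, with 4 of 8 arrays above it. Its log2 signal was 7.78 and 6.92 in serial-transplant long cultures, 7.17, 6.81 and 6.99 in young-donor long cultures, and 6.86, 6.88 and 7.10 in short cultures. Serial-transplant replicate 1 was the highest array and the other 7 ran from 6.81 to 7.17. The log2 change in young-donor long cultures was 0.04, with a 95% confidence interval of -0.37 to 0.46 (limma adjusted p = 0.914). In serial-transplant long cultures it was 0.40, with an interval of -0.06 to 0.87 (limma adjusted p = 0.307).

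Serial-transplant and young-donor long cultures, which shared the same labelled range of culture time, gave no call among the 8 genes. None passed with limma, where 0% of all genes were called. None reached an unadjusted p under 0.05 either, although 2079 probe sets, 7.18% of those tested, did. With array weights in limma 22 probe sets passed, none of them of these genes. Mcam alone did not overlap, lower in the serial-transplant line with a log2 change of -0.15 ± 0.17 (SE), where 26.5% of all genes had no overlap.

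The intervals show how large a difference between these lines the arrays leave room for. Cd24a had the widest, with a log2 change of -0.66 in serial-transplant relative to young-donor long cultures (95% confidence interval -1.41 to 0.09; limma adjusted p = 0.753), which was -1.34 without serial-transplant replicate 2 and 0.03 without replicate 1. For Cdh1 the change was 0.36 (interval -0.10 to 0.82) and for Muc1 it was -0.09 (interval -0.67 to 0.48). Thy1, with 0.14 (interval -0.14 to 0.43), and Cd9, with -0.14 (interval -0.40 to 0.12), had narrower intervals that also included 0. Epcam and Adgra3 each had a change of -0.10, with intervals of -0.38 to 0.18 and -0.36 to 0.15.

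Within the short cultures, 1 array ran low for several genes together. Short-culture replicate 2, the array with the highest fibroblast and leukocyte lists, was the lowest of its group for Cd9, Epcam, Cd24a, Mcam, Adgra3 and Muc1 and the highest for Thy1. Without it the log2 change in young-donor long cultures was still past the threshold for Cd24a, Muc1 and Cd9, and not for Thy1. The 2 serial-transplant arrays split evenly, with replicate 1 lower for Cd9, Epcam, Cd24a and Muc1 and higher for Thy1, Mcam, Cdh1 and Adgra3. With 2 arrays 1 must be the lower for each gene, so this order does not tell of a shared shift. The fibroblast list was higher in replicate 1 (9.73, against 9.11 in replicate 2). Over all 8 arrays the SD of Cd24a was 1.0 and that of Muc1 0.83, which 0.18% and 0.53% of genes exceeded. The other 6 genes had SDs from 0.19 (Adgra3) to 0.32 (Cdh1), where the median gene had 0.17.

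**Figure D4:**
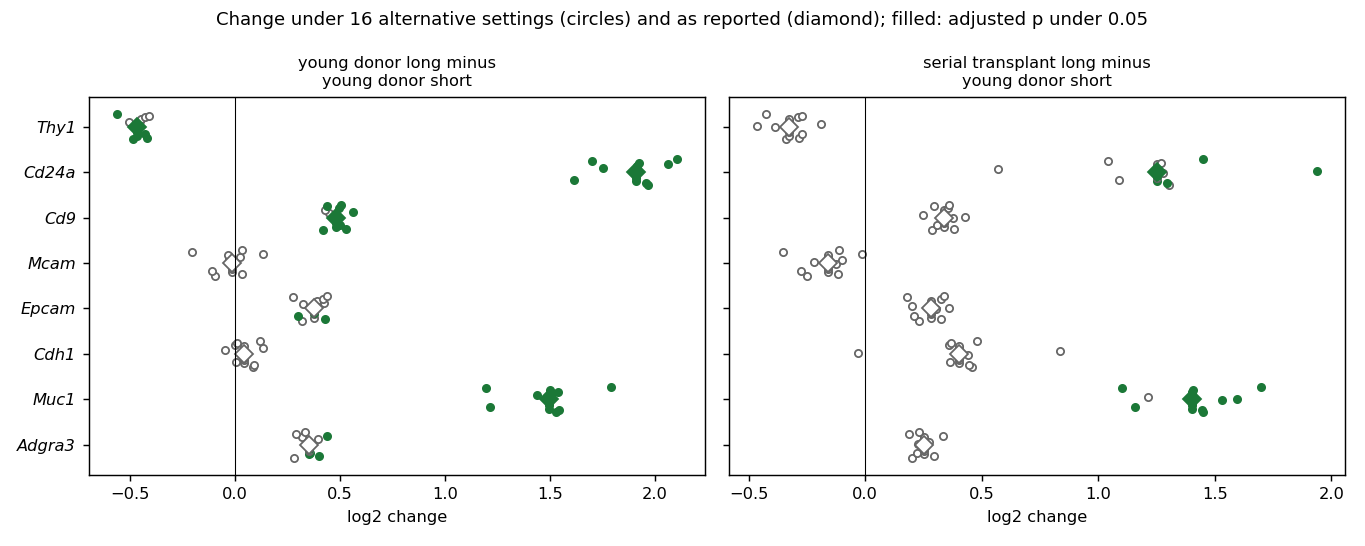
Log2 change of each of the 8 genes under the reported fit (diamonds) and 16 alternative settings (circles), for young-donor long and serial-transplant long cultures against short cultures. Cd24a and Muc1 stay above 0 in every setting, with Cd24a running from 1.61 to 2.11 in young-donor long cultures and from 0.57 to 1.94 in serial-transplant long cultures.

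Other surface molecules used to sort these stem cells were called at about the rate of all genes. Of 14, 1 rose and 1 fell in young-donor long cultures (14.3%, against 12.8% of all genes), and neither passed without young-donor long replicate 1 or 3. Without short-culture replicate 3, 3 fell. Ret, the signalling receptor for GDNF, rose with a log2 change of 0.75 (limma adjusted p = 0.0281), and Pvr, a nectin-like adhesion protein, fell with -0.47 (limma adjusted p = 0.0296). Gfra1, the GDNF-binding co-receptor, and Itga6, the laminin-binding integrin chain, had log2 changes of 0.18 and 0.21 that did not pass (limma adjusted p = 0.438 and 0.269). In serial-transplant long cultures Bcam, a laminin receptor, rose by 0.69 and Alcam, an immunoglobulin-family adhesion molecule, fell by 0.85 on the log2 scale, against the same short cultures (limma adjusted p = 0.00879 and 0.0147), and neither passed without either serial-transplant array.

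Most of the surface molecules that sorted stem cells carry little of fell, and Kit rose. Of 7 measured, 4 fell and 1 rose in young-donor long cultures, where 6.69% of all genes fell and 6.10% rose. The median log2 change of the 7 was -0.77, against -0.04 over all genes. Ptprc, the leukocyte antigen CD45, had a log2 change of -1.42, Cd34, a mucin-like protein of blood and stromal progenitors, -1.37, B2m, the light chain of class I histocompatibility molecules, -1.0, and Itgav, an integrin chain, -0.67. Kit, the receptor that appears as spermatogonia differentiate, rose by 1.41 on the log2 scale, to 10.31 in young-donor long cultures, against 8.90 in short cultures (limma adjusted p = 0.00123). Against the same short cultures, 5 fell in serial-transplant long cultures, among them Cd44, where 5.96% of all genes fell. Kit rose there by 1.21 on the log2 scale (limma adjusted p = 0.00411). The count of fallers was 2 in young-donor long cultures without young-donor long replicate 2 or 3, and 0 in serial-transplant long cultures without serial-transplant replicate 2, where Kit did not pass either.

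Markers of leukocytes and of Leydig cells moved along with culture length. Across all genes 6.69% fell in young-donor long and 5.96% in serial-transplant long cultures, both against short cultures. Of 11 macrophage and mast cell genes 6 fell and 1 rose in young-donor long cultures. The mean level of the 11 was 5.72 to 5.85, against 6.51 to 7.20 in short cultures, and 4 were dim on average in every group. Srgn, which packs secretory granules, and Cpa3, a mast cell protease, had log2 changes of -2.90 and -2.79, and the gene that rose was Kit, which mast cells and germ cells share. In serial-transplant long cultures 6 fell and Kit rose, and the mean level was 5.85 to 5.90. Without serial-transplant replicate 2, 3 fell and none rose. Of 5 measured Leydig cell genes 3 fell in young-donor long cultures, with a mean level of 5.41 to 5.50, against 6.10 to 6.55 in short cultures. These mean levels were all below the dim mark, and 3 of the 5 genes were dim on average in every group. Cyp11a1, which starts steroid synthesis, had a log2 change of -2.35 and Star, which brings cholesterol into mitochondria, -1.0. Cyp11a1 and Star also fell in serial-transplant long cultures, with a list level of 5.48 to 5.53. The number of fallers was 1 without young-donor long replicate 1 or 3, and 0 in serial-transplant long cultures without serial-transplant replicate 2. The part of these cells in the surface results was not tested.

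Among the other cell type lists, core germ cell genes had rises only, and the rest had few calls, none or calls in both directions. Across all genes 12.8% were called in young-donor long and 10.1% in serial-transplant long cultures, both against short cultures. Of 10 simple epithelium genes, which bear on Epcam, Cdh1 and Muc1, 1 rose and 1 fell in young-donor long cultures (20.0%). The list level there was 7.31 to 7.48, against 7.16 to 7.46 in short cultures. Krt18, a keratin of simple epithelia and Sertoli cells, rose with log2 changes of 0.71 in young-donor long cultures and 1.62 in serial-transplant long cultures, where Krt8 rose too. Of 10 Sertoli cell genes 2 rose and 1 fell in young-donor long cultures (30.0%). Against the same short cultures 2 rose and 2 fell in serial-transplant long cultures (40.0%). Among 8 smooth muscle and pericyte genes 1 rose and 1 fell in young-donor long cultures and 1 fell in serial-transplant long cultures, and none of 10 endothelial genes passed with limma in either, with 1 at an unadjusted p under 0.05 in each. Of 20 undifferentiated spermatogonia genes 4 rose and 3 fell in young-donor long cultures, and 3 rose and 4 fell in serial-transplant long cultures. Of 13 core germ cell genes 4 rose and none fell in each of these comparisons (30.8%), where 6.10% and 4.10% of all genes rose. On leaving out each array in young-donor long against short cultures, core germ cell genes gave 1 to 4 rises and undifferentiated spermatogonia genes 1 to 4, the fewest without young-donor long replicate 1 or 3. Simple epithelium genes gave 0 to 2, with none without any of the young-donor long arrays or short-culture replicate 1 or 2. Without serial-transplant replicate 2 none of the Sertoli, smooth muscle, epithelial, undifferentiated or core germ cell genes passed in serial-transplant long against short cultures.

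In the families of Cd9, Cdh1, Epcam, Muc1, Adgra3 and the GPI-anchored proteins, the share of genes called in young-donor long cultures lay on either side of the 12.8% of all genes. Among 22 other tetraspanins 1 rose and 5 fell (27.3%). Tspan2 rose by 0.51 on the log2 scale, while Cd81 and Cd151, which partner integrins as Cd9 does, fell by 0.73 and 0.61 on the log2 scale. The number of fallers was 2, 2 and 1 without young-donor long replicate 1, 2 or 3, and 2 and 3 without short-culture replicate 1 or 2. Of 18 cadherins and catenins 1 rose and 3 fell (22.2%). Dsc2, a desmosomal cadherin, had a log2 change of -1.40, Cdh13 -0.58 and Cdh11, a mesenchymal cadherin, -0.80, and Pkp2, a desmosomal plaque protein, rose by 0.56. Without young-donor long replicate 1, 2 or 3, or short-culture replicate 1, 1 of them fell. None rose without young-donor long replicate 1 or 3 or short-culture replicate 1.

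Epcam's partners and the claudins gave no call among 12 measured in any comparison by limma, with 1 at an unadjusted p under 0.05 in young-donor long cultures and none in the other comparisons. Of 14 other mucins, 11 were dim on average in every group. Podxl, a sialomucin, was the only mucin called (7.14%), with log2 changes of 0.61 in young-donor long cultures and 0.68 in serial-transplant long cultures (limma adjusted p = 0.0219 and 0.0242). The calls were lost without young-donor long replicate 1 or 3 and without either serial-transplant array. Among 18 other adhesion G protein-coupled receptors 3 rose and 2 fell in young-donor long cultures (27.8%). Adgrf5 rose by 1.19, while Adgrl3, a latrophilin, fell by 1.33 and Adgra2, a receptor of the same subgroup as Adgra3, fell by 0.82 on the log2 scale.

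Of 17 immunoglobulin-family adhesion molecules 2 rose and 1 fell in young-donor long cultures (17.6%). Nectin3 and Cadm1, which hold germ cells and other cells together, rose by 0.59 and 0.53, and Vcam1, which binds leukocyte integrins, fell by 1.36 on the log2 scale. Without young-donor long replicate 1 or 3 none of these passed, and Vcam1 did not without young-donor long replicate 2 or short-culture replicate 2. Of 14 other GPI-anchored proteins 3 rose and 1 fell (28.6%). Cd109 rose by 0.65 and Tex101, a germ cell protein, by 0.51, while Ly6e fell by 0.73 on the log2 scale. The number that rose was 1 without young-donor long replicate 1 and 0 without replicate 3, and the number that fell was 0 without young-donor long replicate 1 and 3 without short-culture replicate 3. None of the genes in these lists of surface molecules passed with limma in serial-transplant against young-donor long cultures. With an unadjusted limma p under 0.05 were 6 of 18 adhesion G protein-coupled receptors and 4 of 14 GPI-anchored proteins, in both directions. The other lists held 0 to 2 such genes, where 7.18% of all probe sets reached that p.

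**Figure D5:**
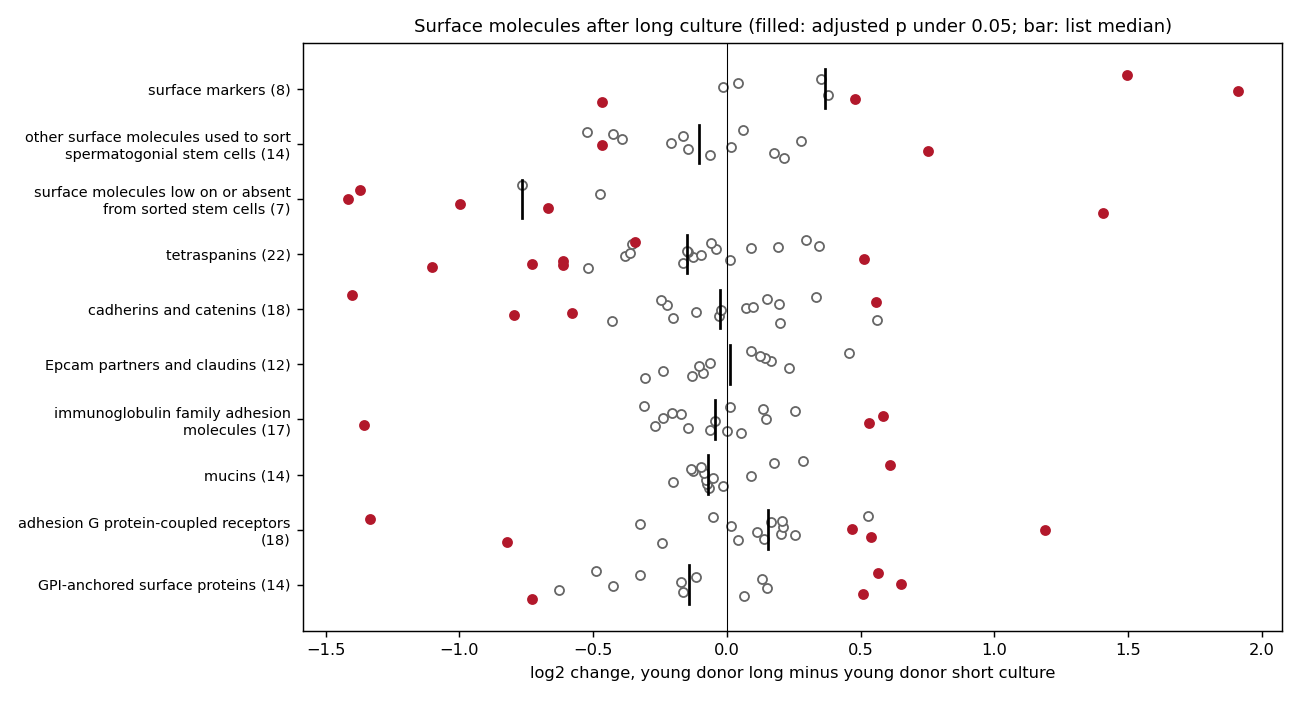
Log2 change in young-donor long relative to short cultures (x axis) of each measured gene (points), by list of surface molecules (rows), with the 8 genes described here as their own row. Genes past the threshold lie on either side of 0 in most rows, and the Epcam partners and claudins have none.

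By Pearson's correlation over the 8 arrays, the genes whose pattern was most like each of the 8 were listed among 1822 genes with a mean above the dim mark and an SD of at least 0.3. The arrays fall into short and long cultures, so any gene that differs between those gives a high r. For Thy1 the nearest were Syde1 (r = 0.972), Farp1 (0.971) and Ctsd (0.970), all higher in short culture. For Cd9 they were Usp1 (0.990), Cntd1 (0.981) and Nek4 (0.981), and for Epcam Arhgap19 (0.999), Blm (0.994) and Tbpl1 (0.994). Cd24a was nearest to Mrpl3 (0.993), Kiz (0.983) and Stpg2 (0.980), and Muc1 to Arntl (0.997), Tcf24 (0.994) and Tm6sf1 (0.994). Adgra3 was nearest to C1ql1 (0.984), Dpysl5 (0.971) and Rbp4 (0.965). Mcam had Epha2 (0.944), an ephrin receptor also used to sort spermatogonia, Pclaf (0.912) and AI506816 (0.861). Mcam and Epha2 both varied most within the short cultures (SD 0.35 and 0.55, n = 3), so their r leans on those arrays. Cdh1 had no close match, with Dusp1 (0.718), Foxf1 (0.675) and Gas2l1 (0.635) nearest.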

How the data were processed

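The authors deposited a log2 signal for each probe set on each array. The submitters' processing notes name Partek 6.4 and RMA. The RNA was hybridised as biotin-labelled cRNA to Affymetrix arrays per the labels' protocols. RMA as usually run subtracts background, quantile-normalizes and joins the probes of a set, which compresses differences between dim signals. The array annotation's genome build is not stated in the labels. Of 35557 rows, 6613 in an unbroken run of identifiers before the first named probe set were taken to be controls and left out. Genes were named by the platform annotation through the 21789 of 28944 probe sets with 1 symbol (1621 had several and 5534 none), with symbols updated by gene number, and each gene was represented by its brightest probe set.

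Groups came from the labels. The 3 comparisons used limma 3.58.1 in R 4.3.3 (1 coefficient per group over 8 arrays, contrasts, eBayes). Prior degrees of freedom were 6.28 and residual 5. Tests were two-sided at 0.05 after Benjamini-Hochberg adjustment across the 28944 probe sets. The step was tested on simulated data. No arrays were identical. The 8 genes and the 9 lists of surface molecules and 10 of cell types were chosen with earlier results of these data known, so calls among them are no independent support. Named genes are the 8, up to 3 genes with the smallest p per surface list and comparison, and the 3 most alike genes of each. Marker genes named as examples, Gfra1 and Itga6 were chosen after their values were seen. Same-numbered arrays of young-donor long and short cultures had deviations that correlated at 0.08, 0.18 and 0.10, and differently numbered ones at -0.28 to 0.25. Same-numbered pairs that included a serial-transplant array had -0.27 to -0.05. Deviations within such small groups must cancel out, so these values cannot decide whether numbers pair arrays, and they were not taken to.

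Alternatives were quantile normalization, median centring, an intensity trend, array weights, a fit of only the groups compared, leaving out dim probe sets, the mean of a gene's probe sets, the replicate number as a block, and leaving out each array. The number of arrays limits the precision. Scanner files and scan dates were not used here.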

Additional observations from a re-analysis of the deposited data

How the results depend on the processing

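Over 16 alternatives, the rises of Cd24a and Muc1 in young-donor long against short cultures passed in all, and no gene of the 8 passed in serial-transplant against young-donor long cultures. The count of the 8 genes called in young-donor long against short cultures, 4, was 4 to 6 under other normalizations and fits and 2 to 4 on leaving out each array, with 2 without young-donor long replicate 1 or 3. The count in serial-transplant long against short cultures, 2, was 1 with quantile normalization, array weights, only the 2 groups compared or the replicate block, and 0 to 2 on leaving out each array, with 0 without serial-transplant replicate 2. The replicate number as a block left the count at 4 in young-donor long against short cultures, where it is not taken to pair arrays. In serial-transplant long against short cultures the block ended the Cd24a call (log2 change 1.28, limma adjusted p = 0.0647). The signs of small changes turned. In young-donor long against short cultures, Mcam had a log2 change of 0.034 after median centring and -0.20 to 0.13 on leaving out each array, and Cdh1 -0.050 to 0.13. In serial-transplant against young-donor long cultures, Muc1 had 0.033 with the replicate block, and leaving out each array gave -0.28 to 0.10 for Muc1, -1.34 to 0.029 for Cd24a and -0.074 to 0.79 for Cdh1. For Cdh1 in serial-transplant long against short cultures that range was -0.033 to 0.84. The cause of these sign changes was not tested, and fits that leave out an array have fewer arrays. Leaving out a serial-transplant array leaves 1, which is then assumed to vary like the other groups.

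Over all probe sets, 3260 were called in young-donor long against short cultures, and 5079 with array weights, 1383 and 1085 without young-donor long replicate 1 and 3. In serial-transplant long against short cultures 2528 were called, and 1252 with only the 2 groups compared, 1528 and 66 without serial-transplant replicate 1 and 2. In serial-transplant against young-donor long cultures none were called, and 22 with array weights, 15 with only the 2 groups compared and 4 with the block. Higher calls made up 48.3% in young-donor long against short cultures and 59.7% after median centring, and 41.0% and 51.0% in serial-transplant long against short cultures. Centring and quantile normalization shifted the median of all probe sets by at most 0.05. Averaging a gene's probe sets gave the reported values, since each of the 8 genes has 1. Leaving out a serial-transplant array could not move a log2 change of young-donor long against short cultures, only its estimated spread and p-value. Dim signals, as of Cd24a in short cultures, can be background, so its fold change may be understated.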
